A study of Mus musculus with 16 samples.

Results

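TRAC is the constant gene of the T cell receptor (TCR) alpha chain, and its transcript was measured cell by cell in antigen-experienced CD4+ T cells of mouse spleen. The cells were those with exactly 1 beta chain (TRB) and 1 or 2 alpha chains (TRA), which was 38108 of 74368 cells (51.2%) in 8 TCR libraries. For each cell the unique molecular identifiers (UMIs, tags that mark single captured transcripts) of contigs labelled TRAC were summed and set beside the UMIs of its TRB contig. The kept cells held 369299 TRAC UMIs and 658121 TRB UMIs, and 2320 of them carried 2 TRA chains. Cells left out were 28330 with 1 TRB and no TRA, 4077 with 2 or more TRB, and 3853 with no TRB. No doublet caller was run, so droplets of 2 cells were removed only where they showed 2 or more TRB. In 1454 kept cells (3.82%) the TRA contig carried no constant-gene label, so these cells counted as having 0 TRAC UMIs.

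All mice received an antibody against NK1.1 (50 µg, days -2 and 5), which depletes natural killer cells and other cells with that surface protein, and Vk12653 myeloma cells, a Vk*Myc tumour, at day 0. They were then given an agonistic antibody against 4-1BB (CD137), a costimulatory receptor of T cells, or control IgG (20 µg, days 10, 13 and 16), and CD44high CD4+ T cells were sorted at day 18. Wild-type (WT) mice were Eomes-IRES-GFP. Knockout (KO) mice lacked Eomes, a T-box transcription factor, through Eomesfl/fl-CD4Cre in experiment 1 and Eomesfl/fl-ERT2CD4Cre in experiment 2, where tamoxifen was given to WT and KO alike. Knockout type, tamoxifen and experiment therefore cannot be told apart. In experiment 1 Cre driven by the CD4 promoter acts in T cells from the thymus on, CD8+ cells included, so that KO is not limited to the sorted cells. An ERT2-fused Cre, as in experiment 2, acts only once tamoxifen is given. The 4 groups of genotype and treatment had 2 libraries each, 1 per experiment. No label used here says how many mice a library held, so the p-values measure the spread between libraries. CD4, CD44 and Eomes transcripts were not analysed here, since the TCR files hold TCR contigs alone.

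A conventional T cell carries a receptor of 1 alpha and 1 beta chain. Each chain gene is built in the thymus by joining a V and a J segment (with a D segment between them in beta), and the joined exon is spliced to a constant exon. The alpha gene is transcribed from the promoter of the joined TRAV segment under an enhancer downstream of TRAC, so the TRAV segment sets the promoter and the TRAJ segment sets the distance between that promoter and TRAC. In the RefSeq annotation of GRCm38.p6 TRAC lies on chromosome 14 from 54220521 to 54224198, and the beta constant genes TRBC1 and TRBC2 lie on chromosome 6 from 41538219 to 41539665 and from 41546730 to 41548181.

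Cells that share both chains descend from 1 cell, and here cells of 1 library were put in 1 clone when they had the same V, the same J and the same CDR3 (the third complementarity-determining region, at nucleotide level) in TRB and in the TRA with most UMIs. There were 30489 clones, of which 27397 had 1 cell, 2617 had 2 to 4 cells (6271 cells) and 475 had 5 or more (4440 cells). The alpha CDR3 of the largest clone in each library is shown because it marks the main alpha transcript of cells compared below. Capitals mark the bases between the stretch common to 90% or more of the distinct CDR3s with the same TRAV and the stretch common to 90% or more of those with the same TRAJ, so they hold the junction and can also hold V or J bases beside it.
WT IgG, experiment 1 (TRAV14-2, TRAJ31): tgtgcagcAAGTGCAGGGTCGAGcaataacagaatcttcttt
WT anti-4-1BB, experiment 1 (TRAV7D-2, TRAJ27): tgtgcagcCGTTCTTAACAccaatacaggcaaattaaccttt
KO IgG, experiment 1 (TRAV14D-3-DV8, TRAJ12): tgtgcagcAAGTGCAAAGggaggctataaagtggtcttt
KO anti-4-1BB, experiment 1 (TRAV7D-2, TRAJ13): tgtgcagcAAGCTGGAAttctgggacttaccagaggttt
WT IgG, experiment 2 (TRAV3N-3, TRAJ30): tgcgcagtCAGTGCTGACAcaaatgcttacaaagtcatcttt
WT anti-4-1BB, experiment 2 (TRAV14N-1, TRAJ4): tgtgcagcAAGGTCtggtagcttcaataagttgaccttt
KO IgG, experiment 2 (TRAV4-4-DV10, TRAJ49): tgtgctgcTGAGtaccagaacttctatttt
KO anti-4-1BB, experiment 2 (TRAV14-2, TRAJ49): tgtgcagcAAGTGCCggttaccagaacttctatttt

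Even within 1 clone, whose cells share the TRA with most UMIs, the TRAC amount ranged widely from cell to cell. A further TRA, whose UMIs are part of the sum, was found in cells of 3 of the clones below. These were 4 cells in WT IgG of experiment 1, 4 in WT IgG of experiment 2 and 1 in WT anti-4-1BB of experiment 2. The 71 cells of the largest clone (KO anti-4-1BB, experiment 2) had 14.9 ± 8.11 TRAC UMIs (SD over cells), from 0 to 47, against a mean of 10.5 in clones of 1 cell of the same library. A lowest value of 0 here marks cells whose TRA contig lacked the constant-gene label, not cells without alpha transcript. Such cells are part of the means and SDs given here, and of those of the single-cell clones. In WT anti-4-1BB of experiment 2, 61 cells had 11.8 ± 5.24 (0 to 31, against 9.92). In WT IgG of experiment 2, 31 cells had 13.5 ± 7.51 (4 to 35, against 7.97). The other largest clones had 11.3 ± 6.23 (30 cells, WT IgG, experiment 1), 16.2 ± 7.14 (20 cells, WT anti-4-1BB, experiment 1), 11.2 ± 5.51 (20 cells, KO IgG, experiment 1), 9.55 ± 5.35 (11 cells, KO anti-4-1BB, experiment 1) and 9.03 ± 4.98 (33 cells, KO IgG, experiment 2). All 8 lay above the mean of the single-cell clones of their own library, by 0.026 to 0.76 on the log2 scale. Their ratios of TRAC to TRB UMIs lay on both sides of it, from 0.346 in WT anti-4-1BB of experiment 2 to 1.11 in KO anti-4-1BB of experiment 1. None of the 8 clones had a cell in another library (0 cells). Ties for the largest clone went to the clone with more summed TRAC UMIs, which favours a high value. In WT anti-4-1BB of experiment 1 there were 2 clones of 20 or more, with 40 cells and a mean of 13.8 TRAC UMIs. The clone shown there was the higher by this choice.

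Depth differed between the files, with 80551 to 445027 TCR UMIs in a library, 8039901 to 15045635 reads in a library, and 726 to 2287 reads per cell. Reads per TRAC UMI ran from 25.0 to 94.2 and were lower under anti-4-1BB than under IgG in each combination of genotype and experiment. Libraries of the same experiment shared 186 to 496 cell barcodes per library, of which 106 to 251 were among the kept cells, and 0 of these barcodes carried the same receptor in 2 libraries. Clones and segments are therefore compared inside each library, and levels between libraries are given with the depth beside them.

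A cell held fewer TRAC than TRB UMIs on average in all 8 libraries. In experiment 1 the mean TRAC UMIs per cell were 7.69 (IgG) and 11.2 (anti-4-1BB) in WT, and 7.10 (IgG) and 9.14 (anti-4-1BB) in KO. In experiment 2 they were 8.23, 10.9, 9.21 and 11.1 in the same order. The lowest library was KO IgG of experiment 1 and the highest was WT anti-4-1BB of experiment 1. Mean TRB UMIs per cell were 13.7, 22.1, 12.3 and 16.6 in experiment 1 and 14.4, 19.2, 14.7 and 18.7 in experiment 2, again in that order. The ratio of summed TRAC to summed TRB UMIs was 0.562, 0.509, 0.576 and 0.549 in experiment 1 and 0.571, 0.568, 0.627 and 0.596 in experiment 2. The ratio thus varied less between libraries (0.570 ± 0.0341, SD, n = 8) than either level did (9.33 ± 1.61 for TRAC and 16.5 ± 3.29 for TRB). These are UMIs captured with separate primers for the alpha and beta chains, so a ratio below 1 does not give the ratio of transcripts in the cell.

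Single cells varied more than libraries did. The median cell had 6 to 10 TRAC UMIs by library, the 95th percentile lay between 17 and 26, and the highest cells held 52 to 101. More TRAC than TRB UMIs were found in 18.2% to 26.1% of cells. Across cells with at least 1 UMI of both chains (2580 to 8620 per library), the correlation of log2 TRAC and log2 TRB was 0.20 to 0.36. Both amounts come from the same cell and library, and no test was made of it.

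**Figure D1:**
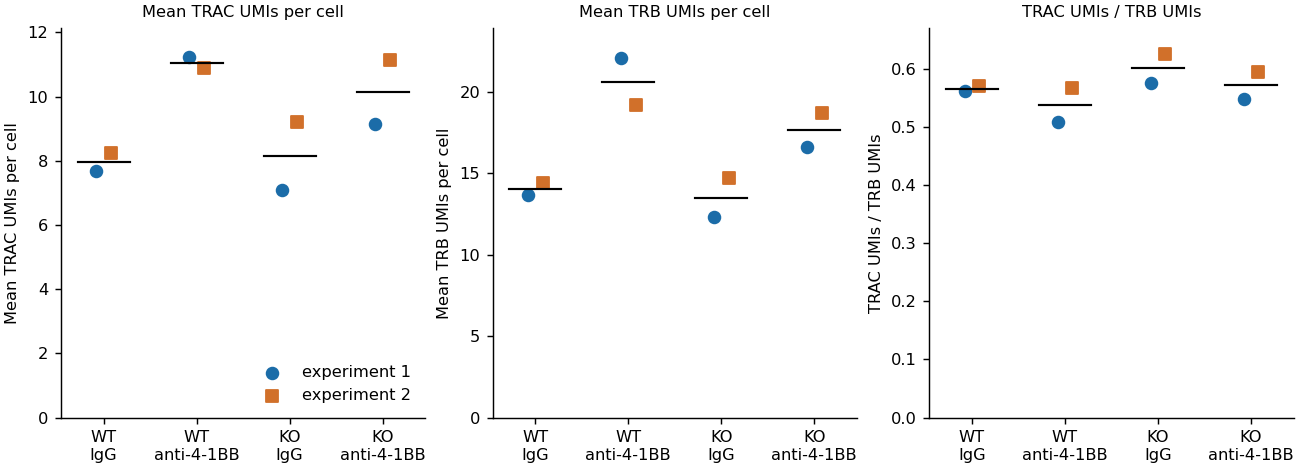
Mean TRAC UMIs per cell, mean TRB UMIs per cell and the ratio of TRAC to TRB UMIs (y axes, from 0) for the 4 groups (x axis), with 1 point per library (blue circles experiment 1, orange squares experiment 2) and a black line at the mean of the 2 libraries. Both levels were higher under anti-4-1BB than under IgG in each genotype and experiment, while the ratio stayed between 0.509 and 0.627.

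With anti-4-1BB, cells had more TRAC UMIs and more TRB UMIs than with IgG in 4 of 4 combinations of genotype and experiment, but neither difference passed after adjustment. The IgG libraries had 8.06 ± 0.895 TRAC UMIs per cell and the anti-4-1BB libraries 10.6 ± 0.985 (SD, n = 4 each). The lowest anti-4-1BB library (9.14) lay just below the highest IgG library (9.21), so the groups overlapped. The log2 difference in TRAC was 0.40 ± 0.11 (SD over 4 combinations, 1.32-fold; exact two-sided permutation test, p = 0.0571, adjusted p = 0.171 over the 6 tests of treatment and genotype). It was 0.55 in WT and 0.36 in KO in experiment 1, and 0.40 and 0.27 in experiment 2. For TRB the IgG libraries had 13.8 ± 1.06 and the anti-4-1BB libraries 19.1 ± 2.24 UMIs per cell without overlap (log2 difference 0.47 ± 0.15, 1.39-fold). That gave p = 0.0286 in the exact permutation test, the smallest that 70 arrangements allow, and an adjusted p of 0.171. With labels exchanged inside experiments, as a replicate block, the exact permutation p for TRB was 0.0556, the smallest possible there.

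The TRAC to TRB ratio was slightly lower with anti-4-1BB in 4 of 4 combinations (0.584 ± 0.0290 with IgG and 0.555 ± 0.0363 with anti-4-1BB, SD, n = 4 each), a difference that did not pass (log2 -0.074 ± 0.054; exact permutation test, p = 0.314, adjusted p = 0.471). It was -0.033 without WT anti-4-1BB of experiment 1 and -0.039 without KO IgG of experiment 2. Counted in reads in place of UMIs, the treatment difference turned to -0.24 for TRAC and -0.25 for TRB, and reads per TRAC UMI moved with treatment (61.9 ± 22.5 with IgG, 42.6 ± 25.8 with anti-4-1BB, SD, n = 4 each). The part of sequencing depth in the UMI difference was not tested.

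Eomes KO and WT libraries overlapped in TRAC UMIs per cell, with 9.14 ± 1.65 in KO and 9.51 ± 1.81 in WT (SD, n = 4 each). The log2 difference was -0.055 ± 0.20 (higher in KO in 2 of 4 combinations; exact permutation test, p = 0.829). In experiment 1 KO lay below WT under either antibody (-0.11 for IgG, -0.30 for anti-4-1BB), and in experiment 2 above it (0.16 and 0.033). TRB UMIs per cell differed by -0.14 ± 0.19 (exact permutation test, p = 0.543), and by -0.016 to -0.25 when 1 library was left out, the smallest without WT anti-4-1BB of experiment 1. The ratio was higher in KO in 4 of 4 combinations (0.587 ± 0.0327 against 0.553 ± 0.0292, SD, n = 4 each), by a log2 difference of 0.087 ± 0.043 that did not pass (exact permutation test, p = 0.2, adjusted p = 0.4). When KO anti-4-1BB of experiment 1 was left out, the ratio difference was 0.12 with an exact permutation p of 0.0286, the smallest possible (adjusted p = 0.0571). In reads it turned to -0.039, and the TRAC difference to 0.28.

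Cells of expanded clones held more TRAC UMIs than cells found once, though the difference did not pass under every setting. Inside a library, cells of clones of 5 or more had 1.14-fold the TRAC UMIs of clones of 1 (log2 0.19 ± 0.14, SD, n = 8 libraries, higher in 7 of 8; exact permutation test over all sign patterns of 8 libraries, p = 0.0156, adjusted p = 0.0469 over 6 tests of clone size). In experiment 1 the means for clones of 1 and of 5 or more were, for WT, 7.52 and 8.94 under IgG and 11.0 and 13.7 under anti-4-1BB. For KO they were 6.94 and 8.04 under IgG and 9.20 and 8.45 under anti-4-1BB. In experiment 2 they were 7.97 and 8.98, 9.92 and 12.3, 8.87 and 9.83, and 10.5 and 12.5 in the same order. KO anti-4-1BB of experiment 1 was the 1 library with the opposite order, and it had the fewest expanded cells, 47 in 8 clones. The difference was 0.16 ± 0.20 within experiment 1 and 0.22 ± 0.073 within experiment 2 (SD, n = 4 each). With 1 library left out it stayed between 0.17 and 0.24, and the adjusted p in the exact permutation test was 0.0312 without KO anti-4-1BB of experiment 1 and 0.0625 to 0.0938 without any of the other 7. It did not pass with clones weighing equally (0.19, exact permutation test, adjusted p = 0.0781) or with at least 3 UMIs per chain (0.16, adjusted p = 0.0938). The same held with the label joining TRBV12-2 and TRBV13-2 read as TRBV13-2 (0.19, adjusted p = 0.0625).

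Clones of 2 to 4 cells lay between them. Their TRAC UMIs per cell were 1.09-fold those of clones of 1 (log2 0.12 ± 0.087, higher in 7 of 8 libraries; exact permutation test, p = 0.0156, adjusted p = 0.0469), with 0.052 ± 0.070 in experiment 1 and 0.19 ± 0.024 in experiment 2. With 1 library left out, its adjusted p was likewise below 0.05 only without KO anti-4-1BB of experiment 1 (exact permutation test, 0.0312 against 0.0625 to 0.0938). With the median cell in place of the mean this difference was 0.082 and no longer passed (exact permutation test, p = 0.125, adjusted p = 0.15). Nor did it pass with clones weighing equally, with at least 3 UMIs per chain or with the joined label (exact permutation test, adjusted p = 0.0781, 0.0938 and 0.0625). Split more finely, the median over libraries of the mean TRAC UMIs per cell was 9.03 for clones of 1, 9.70 for 2, 9.50 for 3, 10.4 for 4, 9.47 for 5 to 9 and 9.89 for 10 to 19 cells. Clones of 20 or more had 11.7 over the 7 libraries that held any. That class was 1 clone in WT IgG and KO IgG of experiment 1 and in WT IgG of experiment 2. These medians set libraries of different depth together. Inside libraries, clones of 10 to 19 lay below clones of 1 in KO IgG of experiment 1 (5.89 against 6.94) and WT IgG of experiment 2 (7.66 against 7.97). They lay above them in the remaining libraries. The level did not climb evenly with clone size.

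TRB moved less regularly with clone size, and the TRAC to TRB ratio showed no difference that passed after adjustment. In clones of 5 or more TRB UMIs were higher in 7 of 8 libraries (log2 0.16 ± 0.22; exact permutation test, p = 0.102, adjusted p = 0.152), and the ratio differed by 0.035 ± 0.095 (exact permutation test, p = 0.367). In clones of 2 to 4 TRB differed by 0.025 ± 0.092 (exact permutation test, p = 0.453). The ratio there was higher in 7 of 8 libraries by 0.094 ± 0.10 (exact permutation test, p = 0.0391, adjusted p = 0.0781). KO anti-4-1BB of experiment 1 again stood apart for TRB in clones of 5 or more, with -0.33, and without it the TRB difference was 0.23 (exact permutation test, p = 0.0156, adjusted p = 0.0312).

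**Figure D2:**
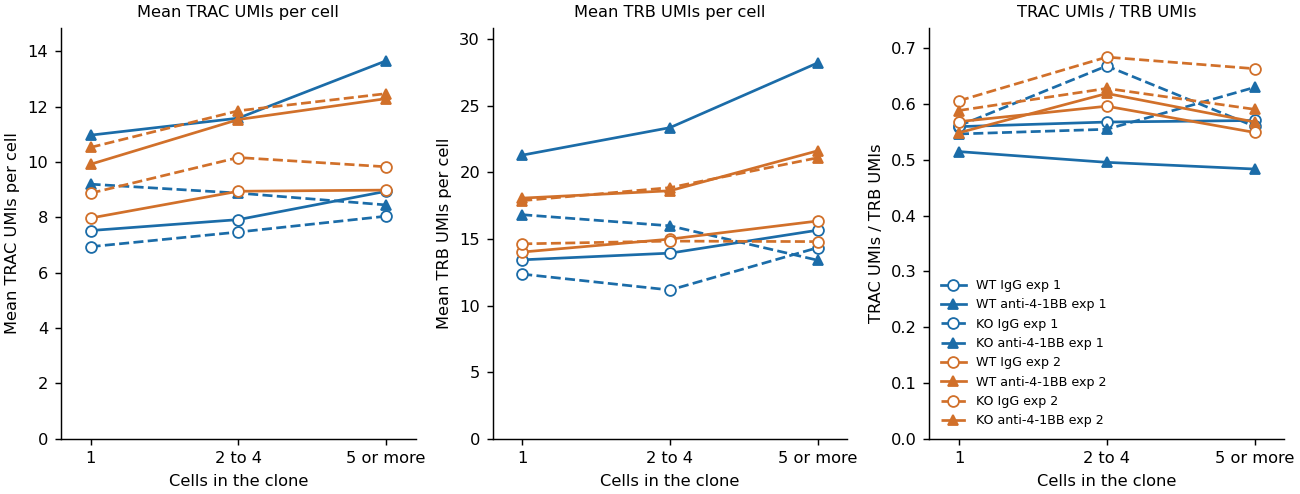
Mean TRAC UMIs per cell, mean TRB UMIs per cell and their ratio (y axes, from 0) for cells of clones of 1, 2 to 4, and 5 or more cells (x axis), with 1 line per library (blue experiment 1, orange experiment 2, dashed KO, filled triangles anti-4-1BB, open circles IgG). TRAC was higher in clones of 5 or more than in clones of 1 in 7 of 8 libraries, and KO anti-4-1BB of experiment 1 ran the other way.

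Other features of the cells moved with clone size too. Cells with 2 TRA chains, which carry more TRAC UMIs, made up 4.29% to 9.25% of clones of 1 and 0% to 7.03% of clones of 5 or more. The share was lower in clones of 5 or more in every library but WT IgG of experiment 1 (5.21% and 6.29%). In cells with exactly 1 TRA the TRAC difference between these classes was 0.23 (exact permutation test, p = 0.0156, adjusted p = 0.0469). Cells with the invariant alpha chain described below were 0.101% to 2.42% of clones of 1 and absent from clones of 5 or more (0%), and without them the difference was 0.19. Setting each cell against the mean of its own TRAV in the library gave 0.14, which did not pass after adjustment (exact permutation test, p = 0.0391, adjusted p = 0.117). That comparison was added after the values were seen. The TRAV mean in it includes the cells of the expanded clones, which by itself can make the difference smaller. The part of TRAV use in the clone-size difference was not tested.

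The clone-size difference was not shown to depend on treatment or genotype. In TRAC it was 0.19 ± 0.21 with anti-4-1BB and 0.20 ± 0.045 with IgG (SD, n = 4 each; exact permutation test, p = 0.971). In KO it was 0.12 ± 0.17 and in WT 0.26 ± 0.067 (exact permutation test, p = 0.114, adjusted p = 0.343 over 4 tests). The gap between KO and WT, -0.14, was -0.060 without KO anti-4-1BB of experiment 1. For the ratio the corresponding exact permutation p-values were 0.829 for treatment and 0.171 for genotype.

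Cells of the same clone resembled each other in TRAC amount only in part. Among 9510 cells with 1 TRA in 2758 clones of 2 or more, differences between clones accounted for 18.3% to 34.4% of the variance of log2 TRAC by library (median 25.5%). The corresponding share was 19.9% to 44.3% for TRB and 25.5% to 38.6% for their ratio. Within a clone the SD of log2 TRAC was 0.62 to 0.79.

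The TRAV and TRAJ segments a cell used went with its TRAC amount. For each segment, the TRAC UMIs of cells with 1 TRA were set against the mean of all such cells of the same library, over the 118 segments with 20 or more cells in at least 6 libraries (edgeR's quasi-likelihood test, Benjamini-Hochberg adjusted over all 118, called under 0.05). Calls were made for 56 of 118 segments (47.5%), 24 higher (20.3%) and 32 lower (27.1%). By type they were 30 of 46 TRAV (65.2%; 30.4% higher, 34.8% lower), 19 of 39 TRAJ (48.7%; 17.9% higher, 30.8% lower), 7 of 21 TRBV (33.3%) and 0 of 12 TRBJ (0%). All TRBJ segments lay between -0.030 and 0.036 on the log2 scale, and 0 of the 12 had an unadjusted p under 0.05 in edgeR (0 calls). In TRB UMIs the pattern was the other way round, with 4 of 46 TRAV (8.7%), 1 of 39 TRAJ (2.56%), 14 of 21 TRBV (66.7%) and 9 of 12 TRBJ (75%) called. The TRAC to TRB ratio was called for 68 of 118 segments (57.6%). The amount of each chain thus varied mainly with the segments of its own gene. Set against the median segment in place of the mean of all cells, the TRAC calls split into 30 higher and 26 lower, with 50 in common with the first list.

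**Figure D3:**
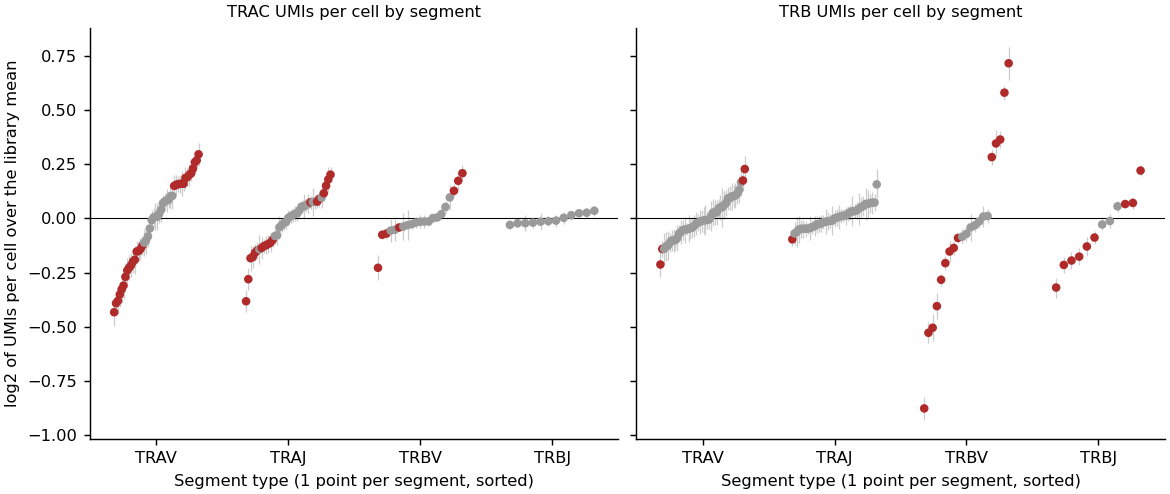
log2 of TRAC UMIs per cell (left) and TRB UMIs per cell (right) over the library mean (y axis) for 118 segments sorted within each of 4 types (x axis), with 1 point per segment, bars for the standard error, and red points for segments called at an adjusted p under 0.05. TRAC values spread over the TRAV and TRAJ segments and stay between -0.030 and 0.036 over TRBJ, while TRB values spread over TRBV and TRBJ.

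TRAV6D-6 and TRAV4-2 were among the lowest TRAV segments, and TRAV7D-3 and TRAV4N-4 among the highest. Mean TRAC UMIs per cell with TRAV6D-6 (chromosome 14, 52821922 to 52822359) were 5.36, 8.15, 5.16 and 6.15 in experiment 1 (IgG then anti-4-1BB in WT, then the same in KO) and 5.89, 8.85, 5.87 and 8.43 in experiment 2. All 8 lay below their library's mean (log2 -0.39 ± 0.04 SE, 1495 cells, edgeR adjusted p = 1.23e-17). With TRAV4N-4 (53302059 to 53302559) the means were 8.37, 12.2, 9.34 and 10.2 in experiment 1 and 9.84, 12.7, 9.85 and 11.9 in experiment 2. All 8 lay above their library's mean (0.27 ± 0.04, 1460 cells, edgeR adjusted p = 3.49e-11). TRB UMIs of the same cells differed by 0.046 and -0.0076 and were not called.

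The other TRAV segments named by the same rule follow. This rule took only called segments with the same direction in all or nearly all libraries. It also chose the TRAV segments above and the highest and lowest TRAJ segments below. A shared direction across libraries was therefore a condition for being named, not a separate result. TRAV7D-3 (0.30 ± 0.05 SE), TRAV14D-3-DV8 (0.26 ± 0.05), TRAV14N-1 (0.23 ± 0.04) and TRAV4-4-DV10 (0.21 ± 0.04) were higher in 8 of 8 libraries. TRAV4-2 (-0.43 ± 0.07), TRAV6-5 (-0.38 ± 0.06), TRAV12-3 (-0.35 ± 0.06) and TRAV19 (-0.33 ± 0.06) were lower in 8 of 8. Of these 10 segments TRAV14D-3-DV8 was the 1 also called in TRB, where it was higher (0.23 ± 0.06, edgeR adjusted p = 0.00461). Over all 46 TRAV, 4 were called in TRB (8.7%). The error and p of any TRAV segment come from a single spread shared by the 46 TRAV, not from its own.

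Counts within TRAV families, on which no test was made, stand beside 30.4% higher and 34.8% lower over all 46 TRAV. All 4 TRAV12 members were lower, with a median of -0.26 against 0.0076 over all 46. Of 7 TRAV6 members 4 were lower and 1 higher (median -0.19), and TRAV6N-7, the higher one (0.16 ± 0.04), differed in direction from TRAV6D-6. Of 7 TRAV14 members 4 were higher and 0 lower (median 0.15), with TRAV14-2 at 0.19 ± 0.04. TRAV7 had 4 higher and 1 lower of 8 (0.12), TRAV4 3 higher and 1 lower of 5 (0.16), and TRAV13 2 higher and 0 lower of 5 (0.085). Suffixes D and N mark copies from duplicated stretches of the mouse TRAV cluster. D copies had 3 higher and 2 lower of 5, N copies 6 higher and 4 lower of 16, and genes with neither suffix 5 higher and 10 lower of 25, beside 14 higher and 16 lower of all 46. Copies can be nearly identical, so the label of 1 copy is less certain than that of its family.

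Among TRAJ segments TRAJ32 was the lowest and TRAJ12 the highest. Mean TRAC UMIs per cell with TRAJ32 (chromosome 14, 54186101 to 54186166) were 5.15, 8.13, 5.31 and 5.07 in experiment 1 (same order) and 5.92, 8.95, 7.66 and 7.55 in experiment 2, below the library mean in 8 of 8 (log2 -0.38 ± 0.05 SE, 668 cells, edgeR adjusted p = 9.43e-08). Its neighbours on either side, TRAJ31 and TRAJ33, had 0.062 and 0.055 and were not called. TRAJ12 (54206552 to 54206610) had 7.92, 12.04, 9.26 and 9.89 in experiment 1 and 8.10, 12.1, 9.55 and 11.9 in experiment 2, above the mean in 8 of 8 (0.20 ± 0.03, 1218 cells, edgeR adjusted p = 7.96e-06). Higher too were TRAJ24 (0.18 ± 0.06), TRAJ13 (0.15 ± 0.04), TRAJ15 (0.12 ± 0.04) and TRAJ23 (0.08 ± 0.03). Lower were TRAJ53 (-0.28 ± 0.05), TRAJ45 (-0.18 ± 0.06), TRAJ44 (-0.18 ± 0.05) and TRAJ56 (-0.16 ± 0.04). Of the 10 TRAJ segments named by the rule, 0 were called in TRB, beside 1 of all 39 TRAJ (2.56%).

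TRAJ segments are numbered from TRAC outward, and the calls divided along that order. Of the 18 segments numbered 30 or below 7 were higher and 0 lower (median 0.076), and of the 21 numbered above 30 0 were higher and 12 lower (median -0.12). By distance from the segment's end to TRAC, a grouping made after the values were seen, the nearest 13 (4.17 to 23.2 kb) had a median of 0.076, with 4 higher and 0 lower. The middle 13 (24.4 to 42.5 kb) had 0.023, with 3 higher and 2 lower, TRAJ32 among the latter. The farthest 13 (44.7 to 63.2 kb) had -0.14, with 0 higher and 10 lower. Across the 39 segments Spearman's rho between distance and log2 TRAC was -0.70 (Pearson's r -0.65), and between distance and log2 TRB 0.29 (0.29). Both are given as a description, since segments share libraries and neighbouring segments can be joined to similar TRAV.

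TRAV use can differ along the TRAJ order, though no values for this are given here. Each TRAJ was therefore also set against the mean TRAC amount of the TRAV of its cells. That mean includes the cells of the TRAJ itself. The medians of the nearest, middle and farthest 13 were then 0.045, 0.036 and -0.11, with 3, 3 and 0 higher and 0, 2 and 8 lower, and rho was -0.63. The unlabelled TRA contigs were unevenly spread over segments, for example 6.74% of cells with TRAJ32, 7.28% with TRAV12-3 and 1.18% with TRAV7D-3. Counting TRA contigs with or without the label left 56 calls, of which 53 were in common, with TRAJ32 at -0.34 and rho at -0.71. Both comparisons were added after the values were seen.

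**Figure D4:**
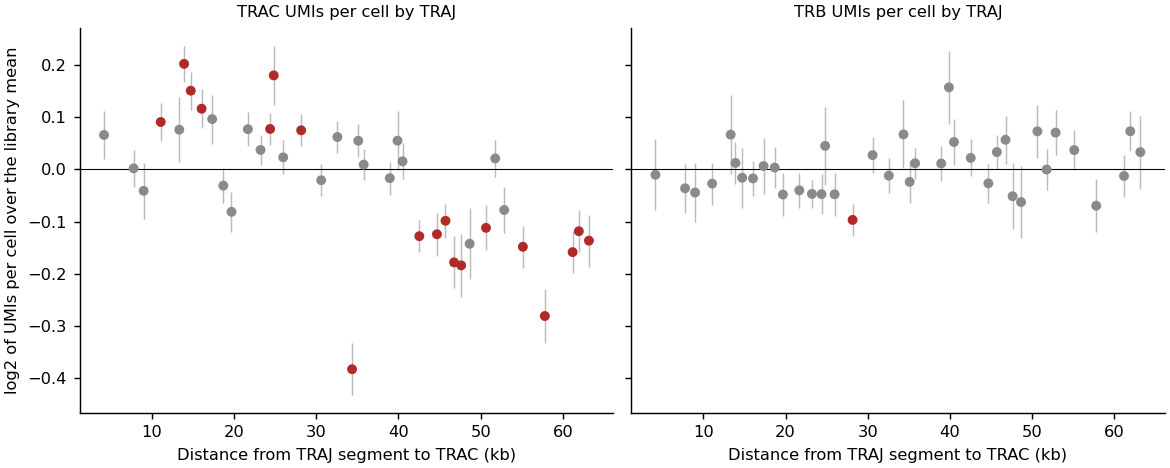
log2 of TRAC UMIs per cell (left) and TRB UMIs per cell (right) over the library mean (y axis) against the distance from the TRAJ segment to TRAC in kb (x axis), with 1 point per TRAJ segment, bars for the standard error, and red points for called segments. TRAC values fall from a median of 0.076 over the nearest 13 segments to -0.14 over the farthest 13, and TRB values show 1 called segment.

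TRBV segments were also associated with TRAC, over a narrower range (-0.23 to 0.21) than with TRB (-0.88 to 0.72). Higher were TRBV2 (0.21 ± 0.04), TRBV12-1 (0.17 ± 0.04) and TRBV19 (0.13 ± 0.03), and these 3 had TRB values of -0.88, -0.41 and -0.53. They were named after their values were seen, among 7 of 21 TRBV called in TRAC (33.3%). Other TRBV called in TRB were not called in TRAC. Examples are TRBV17 (0.72 in TRB, -0.031 in TRAC), TRBV1 (0.36, 0.0016), TRBV26 (-0.28, -0.019) and TRBV20 (-0.21, -0.015). The lowest was the label TRBV13-2 (-0.23 ± 0.06), which had -0.51 in TRB, while the label that joins TRBV12-2 and TRBV13-2 had 0.0042 and 0.011. Also called lower in TRAC were TRBV31 (-0.076, with -0.032 in TRB), TRBV15 (-0.070, with 0.58) and TRBV3 (-0.042, with -0.014).

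Cells with the invariant alpha chain of natural killer T (NKT) cells, TRAV11 joined to TRAJ18, had fewer TRAC UMIs than other cells. This chain pairs with several beta chains to recognise lipids on CD1d. The 3 most frequent of its 22 distinct CDR3 sequences, in 224 cells with it as their main alpha chain, are shown because they differ within the capitals, marked as above, and were found with many beta chains.
76 cells, 75 distinct TRB: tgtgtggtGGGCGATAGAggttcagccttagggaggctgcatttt
64 cells, 64 distinct TRB: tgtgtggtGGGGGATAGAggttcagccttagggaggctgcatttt
27 cells, 27 distinct TRB: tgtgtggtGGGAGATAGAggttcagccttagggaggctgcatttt

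Mean TRAC UMIs in the 231 cells with this chain were 5.55, 6.0, 4.56 and 5.00 in experiment 1 (IgG then anti-4-1BB in WT, then the same in KO; 11, 9, 16 and 9 cells) and 4.84, 4.43, 5.65 and 6.08 in experiment 2 (61, 7, 105 and 13 cells). In other cells they were 7.69, 11.2, 7.12 and 9.15, then 8.28, 10.9, 9.27 and 11.1. Every library had the lower value in the invariant cells (log2 -0.82 ± 0.24, 0.567-fold; exact permutation test over all sign patterns of 8 libraries, p = 0.00781, the smallest possible, adjusted p = 0.0104 over 8 tests added after the values were seen). TRB UMIs of the same cells did not differ in 1 direction (-0.0089 ± 0.29, higher in 5 of 8; exact permutation test, p = 0.922). TRAV11 had too few cells to be tested among the segments, and TRAJ18 over all its cells had -0.081 ± 0.039 and was not called (edgeR adjusted p = 0.0870). EdgeR called it without KO anti-4-1BB of experiment 1 (-0.091, adjusted p = 0.0378) or WT anti-4-1BB of experiment 2 (-0.10, adjusted p = 0.0298). DESeq2 called it too (-0.075, adjusted p = 2.09e-05). That run used each segment's own dispersion estimate without shrinkage and called more segments in all, so its call carries less weight. TRA contigs of TRAV11 lacked the constant-gene label in 7.55% of cells with 1 TRA.

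**Figure D5:**
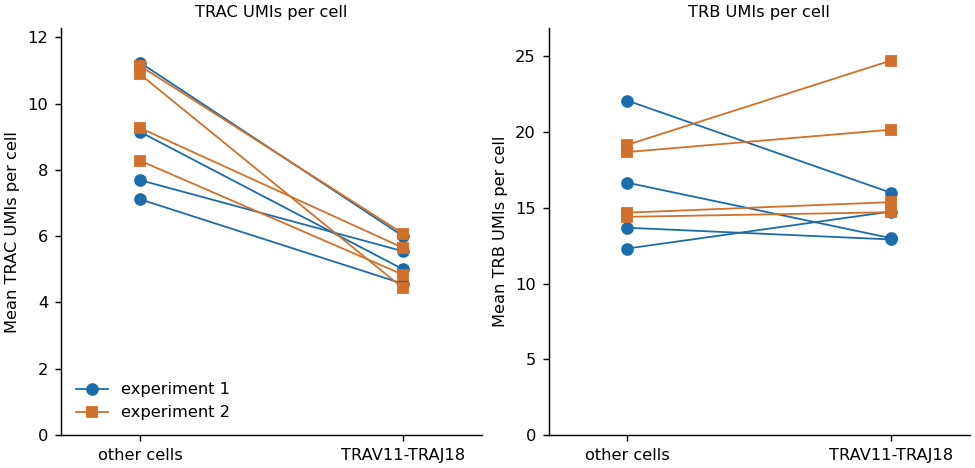
Mean TRAC UMIs per cell (left) and TRB UMIs per cell (right, both y axes from 0) in other cells and in cells with TRAV11-TRAJ18 (x axis), with 1 line per library (blue circles experiment 1, orange squares experiment 2). TRAC lies lower in the TRAV11-TRAJ18 cells in 8 of 8 libraries, from 4.43 to 6.08, while TRB lines cross.

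Cells with 2 TRA chains held 2.04-fold the TRAC UMIs of cells with 1 (13.8 to 21.4 against 6.67 to 10.8 by library; log2 1.03 ± 0.06, higher in 8 of 8; exact permutation test, p = 0.00781, adjusted p = 0.0104). A second contig adds its own UMIs to this sum by construction, and it held 36.4% to 38.1% of it. The larger of the 2 contigs alone still exceeded the single contig of other cells (0.33 ± 0.07, higher in 8 of 8), where the larger of 2 is compared with an only one, and TRB was higher by 0.16 ± 0.09 in 8 of 8 (exact permutation test, p = 0.00781 for both, adjusted p = 0.0104).

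Of 22 TRB genes with 20 or more cells in each library, those whose UMIs per cell followed TRAC most closely over the 8 libraries were TRBV3, TRBV13-3 and TRBV14, with an SD of the log2 ratio to TRAC of 0.058, 0.077 and 0.086. TRBC2 and TRBC1 came after TRBV16 (0.097 and 0.099). Cells with either TRBC gene had like TRAC amounts (log2 0.025 ± 0.066 for TRBC1 against TRBC2, higher in 6 of 8 libraries; exact permutation test, p = 0.320).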

How the data were processed

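The 5′ single-cell TCR libraries were processed with Cell Ranger 7.1.0, bcl2fastq 2.20.0 and Seurat on GRCm38, per the submitters' processing notes. The V(D)J reference is not given in the sources used here. Each deposited table lists contigs with the count of reads and of UMIs behind each, per the file headers, and 123611 contigs were read from 8 tables. Levels are means of UMI counts per cell and were not scaled. Members, lists and named segments were chosen with earlier results of these data known. Named were the 5 highest and 5 lowest TRAV and TRAJ among those called in 1 direction in 7 or 8 of 8 libraries, with TRAV11 and TRAJ18, and the 3 TRB genes most like TRAC.

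Clone sizes were compared inside libraries by exact tests over all sign patterns of the 8 differences (smallest p 0.0078125). Groups were compared by exact permutation tests of 4 against 4 libraries (70 arrangements). All are two-sided. The replicate number is the experiment, as named in the sample titles, and this pairs the libraries. The experiments also differ in knockout type and tamoxifen, as stated above. Exchanging labels inside experiments gives 36 arrangements (smallest p 0.0556). Segments were fitted with edgeR 4.0.16 in R 4.3.3 (quasi-likelihood, intercept against 0, offset from cells and library mean). DESeq2 1.42.0 was an alternative, run with each segment's own dispersion estimate, without a fitted trend or shrinkage. From 8 libraries such estimates are uncertain and can give too many calls. The edgeR fit was tested on simulated data. These were independent counts without clones, so that test does not cover the effect of clones on the calls. Of the 118 labels 117 matched RefSeq. The infinite prior degrees of freedom for TRAV mean a pooled spread. The rest used Python 3.11.15, numpy 2.4.6, pandas 2.3.3 and matplotlib 3.10.9. Alternatives changed 1 setting at a time. Depth per library is given with the results, and UMI counts limit the precision of single cells.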

Additional observations from a re-analysis of the deposited data

Results flagged for a closer look

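In the clone-size comparison of TRAC UMIs per cell, KO anti-4-1BB of experiment 1 stood far from the other 7 libraries, with -0.12 on the log2 scale for clones of 5 or more against 1, where the nearest library had 0.15. This class held 47 cells in 8 clones there. The log2 difference of KO against WT in TRAC UMIs per cell was -0.21 in experiment 1 and 0.097 in experiment 2, 0.30 apart, with KO lower in both treatments in experiment 1 and higher in both in experiment 2. That difference between experiments was not tested. For TRAV6-5, KO IgG of experiment 1 had -0.82 against its library mean, from 36 cells, where the nearest library had -0.49. For TRAJ12 the same library stood out with 0.47, from 113 cells, where the nearest had 0.23. The largest clone of that library, of 20 cells, uses TRAJ12. Chance alone puts about 1 in 20 groups past this limit on a single distant library.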

How the results depend on the processing

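Of 378 values of the 18 tested results under alternative settings, 334 kept their direction and side of the threshold, here an unadjusted p under 0.05 (for counts of segments, within 1.5 times). Some of these could not change. Settings that alter only the alpha count leave the TRB results as they were. Group differences that did not pass could not pass with labels exchanged inside experiments or strata. The tally therefore overstates how stable the results are. Adjusted over the same tests, clones of 5 or more against 1 in TRAC (0.14 to 0.23) passed under 9 of 13 alternatives and without 1 of 8 libraries, and clones of 2 to 4 under 8 of 13 and without 1 of 8. No treatment or genotype difference passed adjusted under any, but the design left little room for that. With labels exchanged inside experiments or inside 4 strata the smallest possible p, 0.0556 and 0.125, is above 0.05. With 70 arrangements it is 0.0286, which does not pass over 6 tests when 1 test alone reaches it. These outcomes therefore do not tell whether a difference is absent. What follows is by unadjusted p. Counting reads in place of UMIs turned treatment to -0.24 (TRAC), -0.25 (TRB) and 0.010 (ratio) and KO against WT to 0.28, 0.32 and -0.039. Counting cells without TRA as 0 turned KO against WT in TRAC to 0.0059. Exact permutation p for treatment in TRB was 0.0556 with the replicate block and 0.125 inside 4 strata (0.47 both), and treatment in TRAC passed with 3 UMIs per chain (0.35) or clones of 1 (0.38). The block moved segment calls to 59 for TRAC and 67 for the ratio and changed no other call among the tests of clones and groups. For clones of 5 or more, TRB passed as the mean of log2 UMIs (0.19), the ratio passed with clones by TRB alone (0.085) and turned to -0.021 given TRAV. For clones of 2 to 4, TRAC did not pass by medians (0.082), TRB turned to -0.013 with clones by TRB alone, and the ratio, not called after adjustment, rose above an unadjusted 0.05 given TRAV (0.065). The clone-size difference by treatment turned in TRAC (0.020 with 3 UMIs per chain, 0.0063 with clones equal, 0.000448 without the top 1% of cells) and in the ratio (-0.022 for mean log2, -0.033 for medians, -0.0083 with clones equal, -0.046 by TRB alone, -0.00025 with the joined label read as TRBV13-2). By genotype it passed in TRAC for mean log2 (-0.14) and by TRB alone (-0.16). DESeq2 called 89 segments for TRAC in place of 56, with all 56 among them, and 101 for the ratio in place of 68. It was run without shrinkage of the dispersions, so these longer lists do not add weight to the edgeR calls. TRAJ18 turned to 0.045 given TRAV. The cause of these changes was not tested.

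Without each library in turn, log2 differences in clones of 5 or more were 0.12 to 0.23 for TRB, and in clones of 2 to 4 0.071 to 0.12 for the ratio. Treatment gave 0.34 to 0.47 (TRAC), 0.40 to 0.54 (TRB) and -0.11 to -0.033 (ratio). Genotype gave -0.16 to 0.061 (TRAC), -0.25 to -0.016 (TRB) and 0.048 to 0.12 (ratio). The clone-size difference by treatment was -0.052 to 0.095 in TRAC and -0.038 to 0.060 in the ratio, and by genotype -0.18 to -0.060 and 0.060 to 0.13. Segment calls were 50 to 56 for TRAC and 63 to 76 for the ratio. TRAJ15 and TRAJ23 lost their call without some libraries (0.073 to 0.14 and 0.059 to 0.096). Cells whose TRA was not recovered are left out of every level, which limits what is known of cells low in TRAC.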

Other observations

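Cells with a TRA chain had more TRB UMIs than cells with 1 TRB and no TRA (log2 0.22 ± 0.06, SD, n = 8 libraries, higher in 8 of 8; exact permutation test over all sign patterns of 8 libraries, p = 0.00781, the smallest possible, adjusted p = 0.0104 over the 8 tests added after the values were seen). The cells without TRA made up 25.9% to 46.8% of a library and held 10.4 to 17.4 TRB UMIs per cell. Cells with TRBC1 had fewer TRB UMIs than cells with TRBC2 in 8 of 8 libraries (log2 -0.21 ± 0.09; exact permutation test, p = 0.00781, adjusted p = 0.0104). The alpha chain of mucosal-associated invariant T cells, TRAV1 with TRAJ33, was found in 5 cells.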
